A study of Mus musculus with 23 samples.

Results

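Gene expression was compared between bone marrow-derived macrophages given bacterial lipopolysaccharide (LPS) and the same kind of cell given bovine serum albumin (BSA) alone as vehicle, 5 h after treatment. The comparison took in the arrays labelled LPS at 5 h (4 replicates) and BSA at 5 h (3 replicates), which are 7 of the 23 arrays of the study, and 19938 genes that a probe set with 1 gene symbol reported. The macrophages came from the marrow of wild-type C57/Bl6 mice, were grown for 6 days in M-CSF at 10 ng/mL, and were treated 1 to 3 days after that factor had been withdrawn. LPS was given at 1 ng/mL and BSA at 125 µM, and the labels do not say that the LPS wells received BSA. If they received none, an effect of LPS and one of the lack of BSA cannot be told apart in this comparison. The sample labels give 5 h for both groups, while the design text of the series gives 4 h, and this disagreement could not be settled here. The labels speak of replicate wells and the design text of biological replicates, and a p-value here reflects how much these arrays vary, which may be partly technical. Cells cultured from marrow in M-CSF stand for macrophages in a dish, not for those of a tissue. Stearic acid and oleic acid, each at 250 µM bound to BSA for 5 h (4 arrays each), served as further groups of the same time.

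LPS, a glycolipid of the outer membrane of Gram-negative bacteria, is handed by Cd14 to the complex of Tlr4 and Ly96 (MD-2) on the macrophage surface. From the plasma membrane the receptor signals through Myd88 and the IRAK kinases to NF-kB and the MAP kinases, which start the transcription of cytokines, chemokines and inflammatory enzymes. From endosomes it signals through Ticam1 (TRIF) and Ticam2 (TRAM) to Tbk1 and Irf3, which start the transcription of interferon beta. Secreted interferon beta then acts back on the cells through Ifnar1, Ifnar2 and the STAT proteins to turn on antiviral genes, and inhibitors such as Nfkbia, Tnfaip3 and Socs3 restrain the response.

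The cells on all 7 arrays carried macrophage markers. The mean log2 level of 13 measured macrophage markers, among them Adgre1, Csf1r, Cd68 and Lyz2, was 10.35 in the LPS group and 10.3 in the vehicle group, where the median gene lay at 4.25. Of these 13, 2 rose and 3 fell, Csf1r and Cd68 among the latter, with a median difference of -0.14, and the falls numbered 6 with a variance trend and 1 with arrays centred or in the fit of the LPS and vehicle arrays alone. Levels of different probe sets are not amounts that can be set against each other, and a level below the median gene is read here as dim. Of 12 dendritic cell markers 2 rose, Fscn1 and the dim Ly6d, and the dendritic cell genes Flt3, Zbtb46, Xcr1 and Clec9a were dim in both groups and not called. Of 14 neutrophil markers 3 rose slightly (Camp, Ltf and Csf3r) and 0 fell, where 9.22% of all genes rose. The count of rises was 1 in the fit of the LPS and vehicle arrays alone and without vehicle array 1, vehicle array 2 or LPS array 3. Against stearic acid 7 of the 14 were higher with LPS and 0 lower, where 9.11% of all genes were higher. Against oleic acid 4 were higher and 0 lower, where 10.8% of all genes were higher. S100a8 and S100a9 were bright in both groups. The mean level of the neutrophil markers was 5.87 to 6.10 on the vehicle arrays and 6.03 to 6.31 on the LPS arrays. Of 13 lymphocyte markers 2 fell (Cd79b and Klrb1c), of 12 erythroid and mast cell markers 1 rose (Mcpt8, which lost its call in 10 of 16 other fits, 6 of them without 1 array), and of 14 stromal and endothelial markers Pdgfrb rose and Vwf fell. The part of other cells in the results below was not tested.

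Between the LPS and vehicle groups 4464 of 19938 genes, or 22.4%, differed at an adjusted p under 0.05 in limma, with 1839 genes risen (9.22%) and 2625 fallen (13.2%) with LPS. The calls were more numerous downward and the sizes larger upward. The median rise was 0.68 on the log2 scale and the median fall -0.51, and 586 genes (2.94%) rose at least 2-fold against 253 (1.27%) that fell at least 2-fold. The arrays of the groups did not overlap for 5940 genes (29.8%). At 4-fold the counts were 187 risen and 11 fallen, and at 16-fold they were 32 and 0. The share of calls that were rises was 41.2%, and it became 52.0% (2114 risen, 1950 fallen) when each array was centred on its own median, so the balance between rises and falls depends on how the arrays are levelled. The median over all genes was -0.02 as deposited and 0.03 after centring. Counts at 2-fold moved less, with 614 risen and 216 fallen at least 2-fold after centring. In a bulk sample, fewer cells of a type and less RNA per cell cannot be told apart. No array stood apart from its group.

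**Figure D1:**
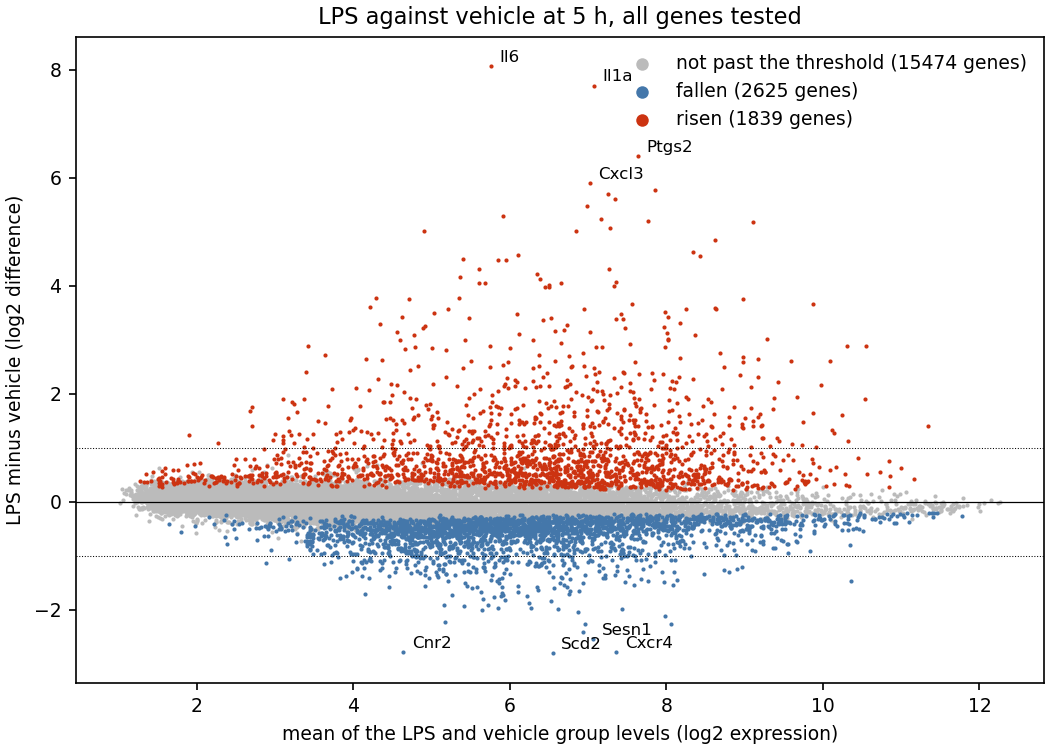
Difference between the LPS and vehicle group means (log2, vertical axis) against the mean of both group levels (log2 expression, horizontal axis) for each of 19938 genes, with 1839 risen genes in red, 2625 fallen genes in blue and the rest in grey. Dotted lines mark a 2-fold change, and the rises reach 8.07 while the falls end at -2.81.

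The calls were spread unevenly over the range of levels. Of the 20% of genes with the lowest level 2.13% rose and 0.401% fell, and of the 20% with the highest 22.4% rose and 24.3% fell. A dim gene that is called therefore stands in a part of the range with few calls, and its fold change is less certain because a dim probe set reads near background.

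The largest rises were those of 2 cytokine genes. Il6, a cytokine that drives fever and the acute phase response, read 1.76, 1.73 and 1.68 on the vehicle arrays and 9.71, 9.85, 10.03 and 9.58 on the LPS arrays. The vehicle values lie far below the median gene, and each LPS array lies well above it. The difference was 8.07 ± 0.18 in log2 (SE; 268-fold, adjusted p = 2.44e-20 in limma), a fold whose size rests on a vehicle level close to background. Il1a, a cytokine released by injured and activated cells, read 3.16, 3.41 and 3.09 in vehicle and 10.98, 10.88, 11.00 and 10.88 with LPS. Its arrays were nearly level within each group, and the difference was 7.71 ± 0.27 (adjusted p = 7.79e-17 in limma).

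The remaining 13 of the 15 largest rises were sorted by the 4 largest called changes of each list used here. Among them 4 stood so in the list of antiviral interferon-stimulated genes, 2 in that of interferon-inducible GTPases and 2 in that of chemokines. Another 1 was the cyclooxygenase gene Ptgs2, and 4 (Ifi213, AA467197, Cd69 and Cmpk2) were not among the 4 largest of any list. Ptgs2, the inducible cyclooxygenase that starts prostaglandin synthesis, went from 4.55, 4.50 and 4.27 to 10.85, 10.83, 10.98 and 10.70. That is 84.4-fold, with a difference of 6.40 ± 0.12 and no overlap between the groups. Cxcl3, which attracts neutrophils, rose by 5.90 ± 0.11 from 3.89, 4.29 and 4.03 to 9.93, 9.97, 10.04 and 9.93. The others were Ifi205 (5.77), Gbp5 (5.70), Mx1 (5.61), Mx2 (5.48), Ifi213 (5.29), AA467197 (5.24), Ifit2 (5.20), Cxcl10 (5.19), Cd69 (5.08), Cmpk2 (5.02) and Iigp1 (5.01). Adjusted p for the 15 lay between 3.29e-22 and 6.32e-12 in limma, and 6 of the 15 had a vehicle mean below the median gene. Mx1 and Mx2, the Ifi200 genes and the Gbp genes belong to families of similar sequence, so a probe set may read more than 1 copy.

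**Figure D2:**
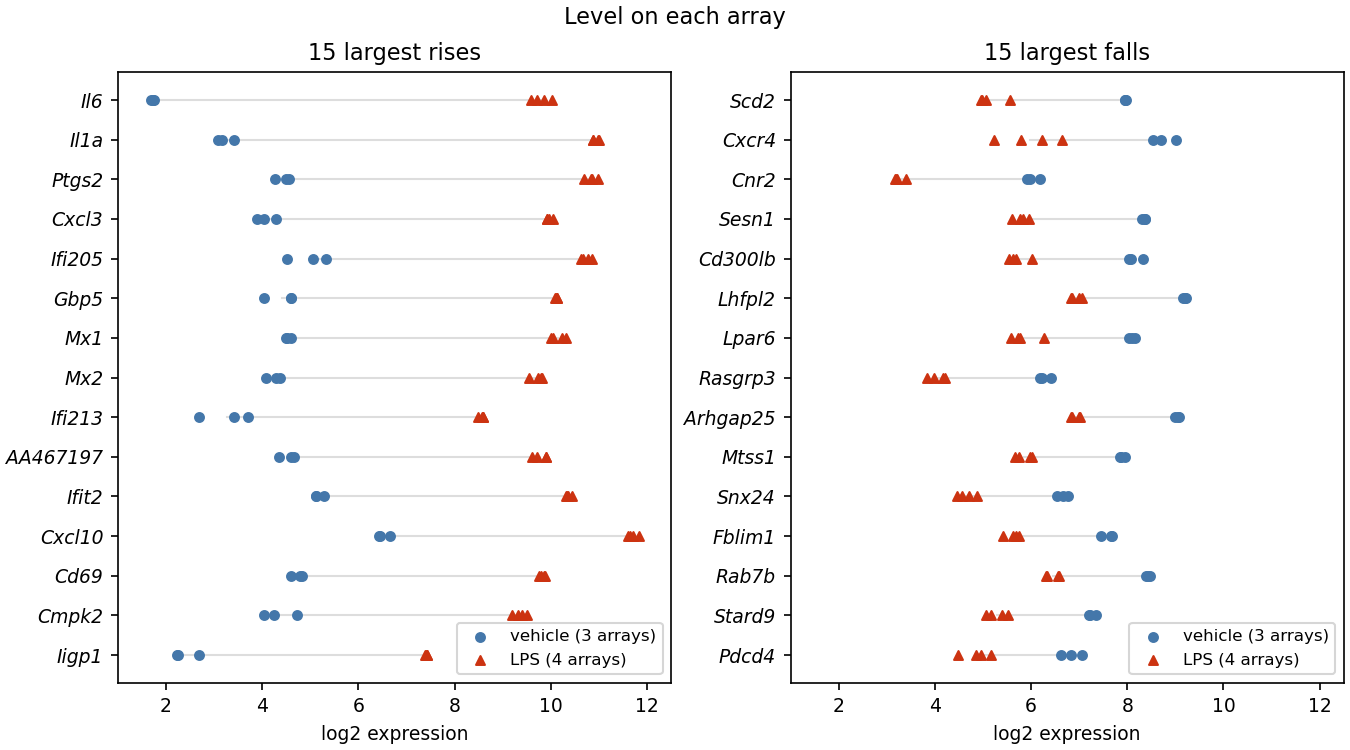
Log2 expression on each vehicle array (blue circles, 3) and each LPS array (red triangles, 4) for the 15 genes with the largest rise (left) and the 15 with the largest fall (right). They were taken among called genes whose groups do not overlap and whose higher group mean lies above the median gene. Il6 moves from between 1.68 and 1.76 to between 9.58 and 10.03, and Scd2 from between 7.95 and 7.97 to between 4.96 and 5.56.

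The 15 largest falls were smaller than the 15 largest rises. Scd2, a stearoyl-CoA desaturase that makes monounsaturated fatty acids, read 7.96, 7.97 and 7.95 in vehicle and 5.56, 4.98, 5.07 and 4.96 with LPS. The vehicle arrays coincided and each LPS array was lower by more than 2 in log2, a fall of 2.81 ± 0.11 (7.04-fold, adjusted p = 6.93e-16 in limma). Cnr2, the cannabinoid receptor of immune cells, read 5.97, 6.19 and 5.92 in vehicle and 3.39, 3.22, 3.17 and 3.20 with LPS. Cxcr4, the receptor for Cxcl12 that holds leukocytes in the marrow, read 8.71, 8.54 and 9.01 in vehicle and 5.23, 6.22, 6.64 and 5.80 with LPS. Cnr2 and Cxcr4 both fell by 2.78, but the LPS arrays agreed closely for Cnr2 (SD 0.10, n = 4) and spread widely for Cxcr4 (SD 0.60, n = 4). Sesn1, a sestrin that restrains mTORC1, fell by 2.55 ± 0.09 from 8.36, 8.37 and 8.30 to 5.84, 5.76, 5.96 and 5.61.

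The other 11 of the 15 largest falls were Cd300lb (-2.42), Lpar6 (-2.27), Lhfpl2 (-2.27), Rasgrp3 (-2.23), Arhgap25 (-2.12), Mtss1 (-2.04), Snx24 (-2.0), Fblim1 (-1.98), Rab7b (-1.98), Pdcd4 (-1.97) and Stard9 (-1.97). Cd300lb is an activating receptor of myeloid cells, Lpar6 a lysophosphatidic acid receptor, Rasgrp3 an exchange factor for Ras, Arhgap25 a GTPase-activating protein for Rac, and Pdcd4 an inhibitor of translation initiation. Adjusted p for the 15 falls lay between 2.78e-17 and 5.85e-11 in limma. Stard9 had 3 probe sets, which fell by 1.97, 1.43 and 1.22.

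The same 30 genes were set against the fatty acid arrays of the same time. The comparisons of LPS with the acids share the LPS arrays with the main comparison, and those of the acids with vehicle share its vehicle arrays. The 30 genes were picked for large differences on those arrays, so the counts below are not independent of that choice. LPS against stearic acid called 22.1% of all genes and LPS against oleic acid 26.4%, and each of the 15 rises and 15 falls was among them in the same direction. Rises measured 3.71 to 7.77 against stearic acid and 4.81 to 8.31 against oleic acid, and falls 1.5 to 3.30 and 1.86 to 3.12 in size. Stearic acid against vehicle (3.33% of all genes called) was called in the same direction for 6 of the 15 rises and 5 of the 15 falls. It was called in the opposite direction for 2 of the falls, Scd2 (0.48, adjusted p = 0.0134 in limma) and Lhfpl2 (0.59, adjusted p = 1.51e-05 in limma). Oleic acid against vehicle (0.0702% of all genes called) was called in the same direction for Scd2 (-0.96, adjusted p = 8.14e-05 in limma). For Mx1 it was called in the opposite direction (-0.62, adjusted p = 0.0289 in limma).

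Genes of the receptor complex itself moved little. Tlr4 read 7.55, 7.60 and 7.65 in vehicle and 7.94, 8.03, 8.01 and 8.04 with LPS, without overlap. The rise was 0.40 ± 0.09 (1.32-fold, adjusted p = 0.0015 in limma). Cd14, the coreceptor that delivers LPS, read 10.66, 10.68 and 10.73 in vehicle and 11.29, 11.25, 11.29 and 11.41 with LPS, a rise of 0.62 ± 0.08. Ly96 overlapped between the groups (difference 0.19, 95% interval -0.07 to 0.45, adjusted p = 0.327 in limma), and Cd180 differed by 0.02 with an interval of -0.13 to 0.16.

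Among the adaptors and kinases behind the receptor, 8 of 22 measured members of the whole list rose and 3 fell, with a median difference of 0.18 against -0.02 over all genes. The largest rise was that of Irak3, the IRAK family member that blocks receptor signalling, from 7.26, 7.41 and 7.61 to 8.88, 8.86, 8.83 and 8.58 (1.36 ± 0.11). Myd88, the adaptor of most Toll-like receptors, rose by 1.20 ± 0.10, Irak2 by 1.01 ± 0.11 and Tab2 by 0.92 ± 0.11. The lipid phosphatase gene Inpp5d (SHIP1), which limits phosphoinositide signalling, read 7.95, 8.05 and 8.06 in vehicle and 6.70, 6.62, 6.69 and 6.65 with LPS. Its fall of 1.35 ± 0.09 was the largest of the list, and Irak1 (-0.24) and Tab1 (-0.51) fell by less. Traf6 (0.37), Ticam2 (0.16) and Map3k7 (0.08) were not called.

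Of 10 other Toll-like receptor genes 6 rose and 2 fell. Tlr3, which senses double-stranded RNA, rose most, from 5.66, 5.65 and 5.68 to 7.77, 7.74, 7.79 and 7.89 (2.14 ± 0.13). Tlr7, a sensor of single-stranded RNA, rose by 1.72 ± 0.14, Tlr2, which senses lipoproteins, by 1.39 ± 0.11 and Tlr6 by 1.25 ± 0.15. The largest fall, named after its value was seen, was that of Tlr13, a sensor of bacterial ribosomal RNA (-0.86).

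Genes of the NF-kB system rose together, and inhibitors were among the largest. Of 22 measured members 17 rose and 1 fell (Otulin, -0.55), with a median of 1.02. Nfkbiz, a nuclear partner of NF-kB needed for Il6, rose by 1.97 ± 0.10 from 6.29, 6.36 and 6.24 to 8.35, 8.38, 8.23 and 8.12. Nfkbia, which encodes IkB alpha and is itself an NF-kB target, read 8.47, 8.53 and 8.52 in vehicle and 10.20, 10.17, 10.33 and 10.18 with LPS. It rose by 1.72 ± 0.10 (adjusted p = 1.63e-12 in limma). Tnfaip3 (A20), the ubiquitin-editing inhibitor, rose by 1.62 ± 0.09, Nfkbie by 1.59 and Tnip1 by 1.29. The subunit genes Nfkb2 (1.74), Rel (1.27), Relb (0.71) and Rela (0.58) rose by unequal amounts, and of the kinase genes Ikbke (0.98), Ikbkb (0.82) and Tbk1 (0.48) rose while Ikbkg (0.27) was not called. Nfkb1 was not analysed here.

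**Figure D3:**
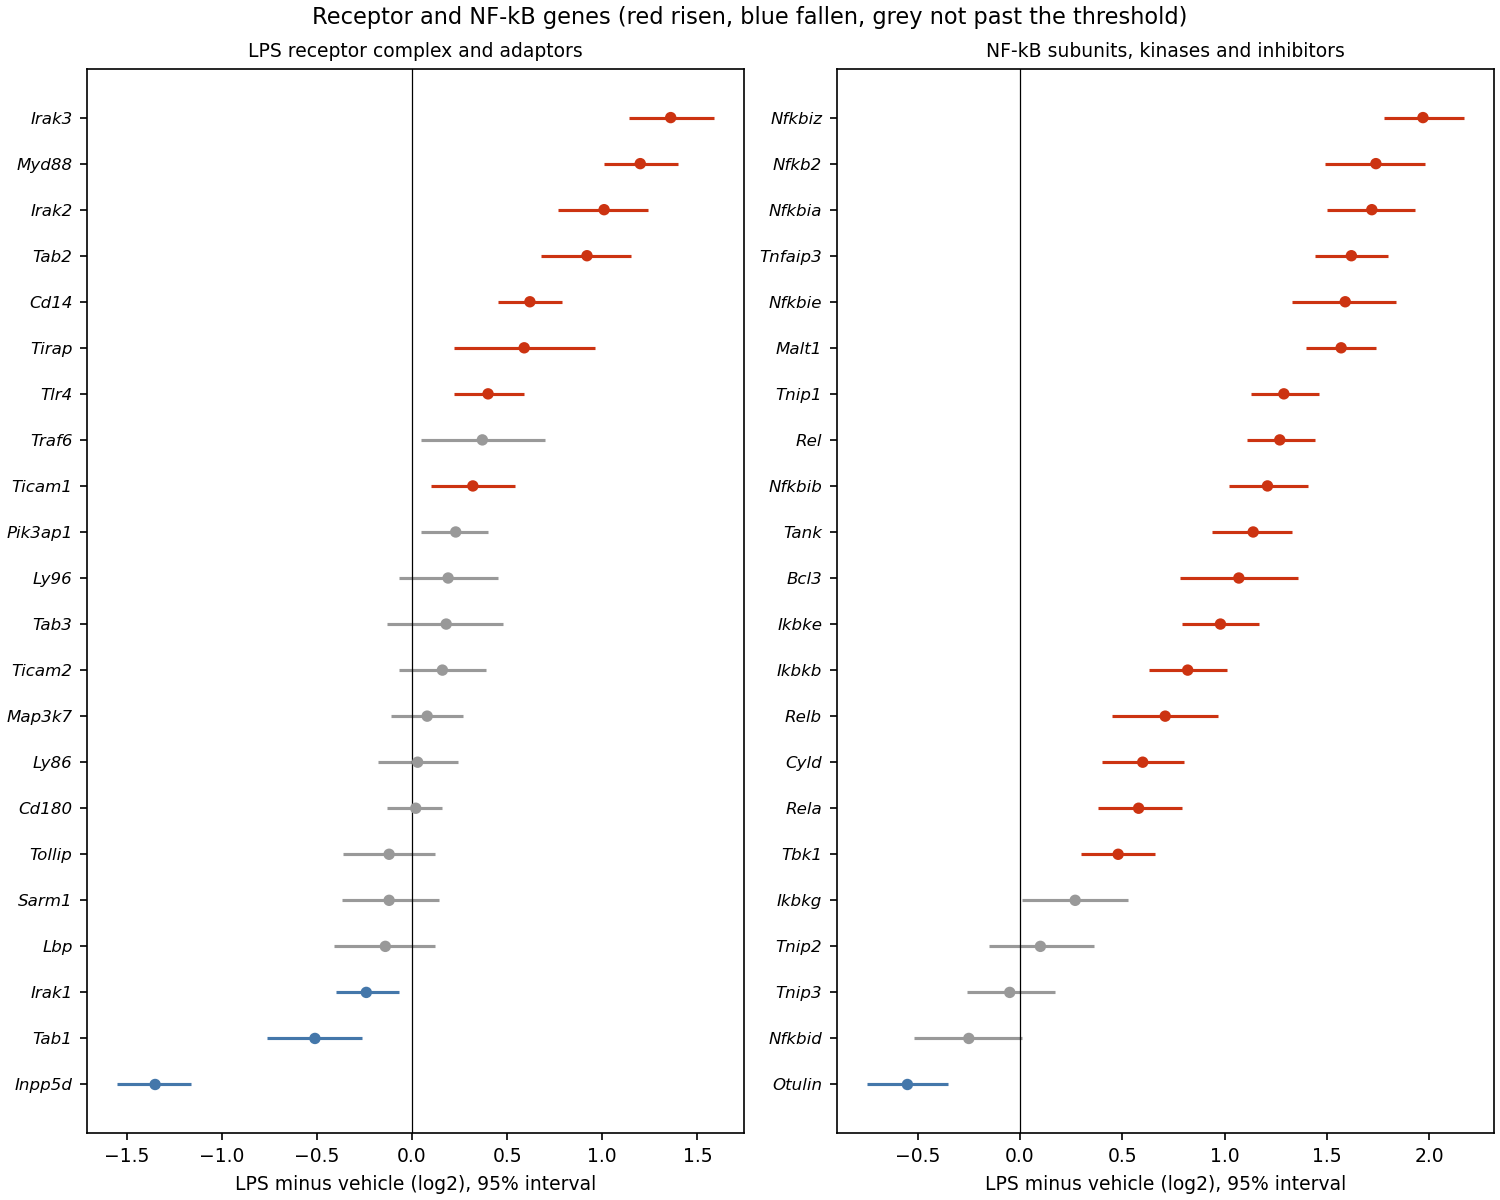
Difference LPS minus vehicle (log2, horizontal axis) with its 95% interval from the fit for each of 22 measured genes of the LPS receptor and adaptor list (left) and of the NF-kB list (right), risen in red, fallen in blue and not called in grey. The receptor list runs from -1.35 (Inpp5d) to 1.36 (Irak3), and 17 of the 22 NF-kB genes lie to the right of 0 as called rises.

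Cytokines of the Tnf, Il6, Il10 and Il12 families together with the colony-stimulating factors Csf1, Csf2 and Csf3 rose in 13 of 17 measured genes and fell in none, with a median of 1.25. Csf3 (0.52) lost its call in 7 of 16 other fits, Ebi3 in 6 and Lif in 2. The count of rises was 10 without vehicle array 1 or 3, and 11 without vehicle array 2 or LPS array 1 or 3. The 4 of the 17 without a call in the main fit were Il11, Il19, Il20 and Il24, each dim in both groups. Il12b, the p40 subunit shared by IL-12 and IL-23, read 3.57, 3.79 and 3.62 in vehicle and 7.33, 7.71, 8.11 and 7.68 with LPS, a rise of 4.05 ± 0.14. Il12a, its partner in IL-12, rose by 2.85 ± 0.13, Il27 by 3.19 ± 0.13 and Il23a by 1.33. Tnf started high, at 9.49, 9.55 and 9.72, and reached 11.51, 11.49, 11.57 and 11.38. The rise was 1.90 ± 0.09 (3.74-fold), without overlap. Il10, the anti-inflammatory cytokine, went from 4.34, 4.06 and 3.83 to 5.02, 5.41, 5.47 and 5.41, a rise of 1.26 ± 0.14 in which 1 LPS array lay below the other 3. Csf1, the gene of the growth factor on which these cells were raised, rose by 2.72 ± 0.14.

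In the interleukin-1 family and its processing genes 11 of 16 rose and 1 fell, with a median of 0.73. Il1b went from 6.04, 6.39 and 6.04 to 10.65, 10.51, 10.88 and 10.81, a rise of 4.56 ± 0.16 (23.5-fold, adjusted p = 7.79e-17 in limma). Nlrp3, the inflammasome sensor, rose by 2.66 ± 0.09 from 6.90, 6.88 and 6.76 to 9.44, 9.50, 9.52 and 9.57. Il18 rose by 2.47 ± 0.14. The member that fell was Pycard (-0.52), the adaptor that joins Nlrp3 to caspase-1.

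Of 27 chemokine genes 18 rose and 1 fell, with a median of 1.40. Cxcl10, which attracts T cells and is induced by interferons, read 6.44, 6.66 and 6.43 in vehicle and 11.84, 11.64, 11.70 and 11.61 with LPS (5.19 ± 0.17). Its relative Cxcl9 rose by 4.57 ± 0.16. Cxcl1, a neutrophil attractant, read 5.80, 5.68 and 5.71 in vehicle and 9.26, 9.62, 9.36 and 9.37 with LPS (3.67 ± 0.12). Ccl5, which attracts T cells and monocytes, rose by 2.88 ± 0.10 from 9.02, 9.08 and 9.23 to between 11.90 and 12.04. Cxcl14 was the member that fell (-0.44).

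The lists of antiviral genes and interferon-inducible GTPases had the largest shares of risen genes among their measured members. Of 43 measured antiviral interferon-stimulated genes (47 in the list) 41 rose and 0 fell, with a median of 2.38. Of the interferon-inducible GTPases only 10 of the 19 in the list were measured, and these 10 rose, with a median of 3.45. The exceptions were Ifi27l2a, bright in both groups (difference 0.03, adjusted p = 0.921 in limma), and Ifi44l, dim in both (-0.15, adjusted p = 0.417 in limma). Mx1 read 4.52, 4.61 and 4.50 in vehicle and 10.05, 10.00, 10.31 and 10.24 with LPS. Ifit1, which binds viral RNA lacking a methylated cap, read 6.07, 5.95 and 6.07 in vehicle and 10.83, 10.62, 10.56 and 10.62 with LPS (4.63 ± 0.22). Gbp5, a guanylate-binding protein that acts on bacteria and their membranes, read 4.04, 4.60 and 4.59 in vehicle and 10.11, 10.13, 10.09 and 10.12 with LPS. In each of these 3 genes the LPS arrays lay more than 4 in log2 above the highest vehicle array. The same lists gave 41 of 43 and 10 of 10 genes higher with LPS than with stearic acid, and the same counts against oleic acid, where 9.11% and 10.8% of all genes were higher with LPS.

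The regulators of that response changed selectively, with 14 of 26 risen and 1 fallen. Ifnb1, the interferon beta gene, read 2.41, 2.51 and 1.92 in vehicle and 4.19, 5.41, 5.21 and 5.14 with LPS, a rise of 2.71 ± 0.19 (adjusted p = 4.36e-11 in limma). Its vehicle level was dim, and the first LPS array lay below the other 3. Irf7, which amplifies interferon production, rose by 3.57 ± 0.14 from 5.09, 5.08 and 5.29 to 8.89, 8.50, 8.75 and 8.78. Batf2 rose by 2.76, Irf1 by 2.37 (1.80 with its other probe set) and Stat2 by 2.26. Irf3 (-0.19), Irf5 (0.14) and Irf8 (0.09) were not called, nor was Ifna4 (-0.26), and Ifngr1, a chain of the interferon gamma receptor, fell by 0.43 ± 0.09.

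The bases before the start sites of 5 risen genes and 1 fallen gene are shown because the genes just described move in groups that are known to be driven by NF-kB and by interferon regulatory factors. Each run is the 250 bases before the annotated start of transcription, 5′ to 3′ on the strand of the gene, from RefSeq on GRCm38.p6, and capitals mark matches to the kB consensus or to the interferon-stimulated response element (ISRE, searched as GAAA, any 2 bases and GAAA), on either strand.
Il6: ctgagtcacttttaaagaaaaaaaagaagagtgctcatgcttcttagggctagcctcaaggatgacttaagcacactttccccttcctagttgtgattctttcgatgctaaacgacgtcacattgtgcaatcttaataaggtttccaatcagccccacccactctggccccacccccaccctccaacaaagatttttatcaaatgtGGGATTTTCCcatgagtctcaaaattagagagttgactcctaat
Cxcl3: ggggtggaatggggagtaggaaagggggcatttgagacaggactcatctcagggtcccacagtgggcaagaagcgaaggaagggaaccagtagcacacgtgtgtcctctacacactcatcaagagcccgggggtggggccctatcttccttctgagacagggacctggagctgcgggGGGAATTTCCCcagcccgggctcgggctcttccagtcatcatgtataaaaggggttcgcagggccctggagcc
Cxcl10: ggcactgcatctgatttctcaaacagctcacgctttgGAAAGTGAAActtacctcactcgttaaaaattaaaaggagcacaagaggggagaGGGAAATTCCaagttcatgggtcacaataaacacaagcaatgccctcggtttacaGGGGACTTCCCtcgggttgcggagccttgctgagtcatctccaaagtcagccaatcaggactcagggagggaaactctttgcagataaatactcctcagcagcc
Gbp5: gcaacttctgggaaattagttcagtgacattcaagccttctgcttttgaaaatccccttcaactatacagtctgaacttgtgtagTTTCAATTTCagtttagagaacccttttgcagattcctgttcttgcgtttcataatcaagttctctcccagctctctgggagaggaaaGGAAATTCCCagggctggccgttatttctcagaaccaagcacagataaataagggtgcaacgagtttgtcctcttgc
Ifit1: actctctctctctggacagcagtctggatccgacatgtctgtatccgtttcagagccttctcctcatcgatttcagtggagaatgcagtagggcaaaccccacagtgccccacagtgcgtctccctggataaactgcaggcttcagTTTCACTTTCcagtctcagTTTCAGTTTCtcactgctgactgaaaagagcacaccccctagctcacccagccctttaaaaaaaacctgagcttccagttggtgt
Sesn1: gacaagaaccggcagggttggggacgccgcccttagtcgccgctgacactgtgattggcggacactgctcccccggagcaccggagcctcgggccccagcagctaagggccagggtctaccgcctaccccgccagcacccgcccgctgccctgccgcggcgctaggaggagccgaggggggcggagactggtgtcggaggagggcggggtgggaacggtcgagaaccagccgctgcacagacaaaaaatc
The Il6 window (chr5:30012864-30013113, plus strand) held 1 kB match, 44 bases before the start. The Cxcl3 window (chr5:90785851-90786100, plus strand) held 2 overlapping matches that begin 73 and 72 bases before the start, and the same letters GGGAATTTCC stood in the windows of its neighbours Cxcl1 and Cxcl2. The Cxcl10 window (chr5:92348890-92349139, minus strand) held an ISRE match at 213 bases and kB matches at 159, 104 and 103 bases before the start, of which the last 2 overlap. Gbp5 (chr3:142496684-142496933, plus strand) held 1 match of each kind, at 165 bases (ISRE) and 77 bases (kB), and Ifit1 (chr19:34640639-34640888, plus strand) held 2 ISRE matches, at 104 and 85 bases. The window of the fallen gene Sesn1 (chr10:41810324-41810573, plus strand) held neither. No match to either was found in the windows of the risen genes Ptgs2, Il1a, Il12b, Tnf, Acod1, Irf7 and Cmpk2, and the window of Ifit2 held no ISRE match, which says only that these letters are not in those windows. For each gene, here and in the shares below, only the first listed window was searched. Any other annotated start of the gene was left out.

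Over windows of 300 bases, which add 50 bases after the start, 455 of the genes risen at least 2-fold had a window in the table. Of these 15.2% held a kB match and 13.4% an ISRE match, against 9.18% and 3.32% of 15614 tested genes with a window. Among 206 windows of genes fallen at least 2-fold the shares were 5.83% and 1.46%. By list, 15 of 33 antiviral genes and 5 of 5 interferon-inducible GTPases with a window held an ISRE match, and 10 of 18 NF-kB genes and 6 of 18 chemokine genes held a kB match. In the interleukin-1 list, which holds Il1a and Il1b, 1 of 14 did (7.14%), and in the cell cycle list 2 of 28. AP-1 matches (TGANTCA) stood in 11.2% of the windows of risen genes, 6.31% of those of fallen genes and 6.98% of all. The motifs were not split cleanly by list. A kB match also stood in 7 of 33 antiviral windows (21.2%). An AP-1 match stood in 10 of 33 antiviral windows (30.3%), 2 of 5 GTPase windows, 5 of 18 NF-kB windows and 3 of 18 chemokine windows. In the cell cycle list 0 of 28 held an AP-1 match, and in the NF-kB list 0 of 18 an ISRE match. A match is a run of letters and not evidence that a factor binds there.

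Enzymes that make inflammatory mediators rose strongly in part, with 7 of 19 risen and 5 fallen, or 3 fallen with arrays centred or without vehicle array 2 or 3 or LPS array 3. Besides Ptgs2, Nos2, the inducible nitric oxide synthase, rose from 3.68, 3.36 and 3.37 to 7.27, 7.20, 7.28 and 7.21 (3.77 ± 0.16). Acod1, which makes the antibacterial metabolite itaconate, read 8.10, 7.89 and 8.13 in vehicle and 11.81, 11.73, 11.69 and 11.58 with LPS (3.66 ± 0.12). Slc7a2, an arginine transporter, rose by 3.23 ± 0.11. Hpgds, which makes prostaglandin D2, fell by 1.07 ± 0.11 and was named after its value was seen.

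Genes through which macrophages address other cells also rose. Of 25 genes of the TNF ligand and receptor superfamily 13 rose and 4 fell, led by Tnfsf10 (TRAIL, 3.75), Cd40 (3.57), Tnfsf9 (3.48) and Tnfsf4 (3.43). Cd40, which receives help from T cells, read 6.85, 6.84 and 6.87 in vehicle and 10.38, 10.32, 10.49 and 10.49 with LPS. Of 23 genes of costimulation and antigen presentation 16 rose and 0 fell, led by Cd274 (PD-L1, 2.75), the peptide transporter Tap1 (2.70), Cd86 (2.45) and Icosl (2.14). Of 28 adhesion, matrix and clotting genes 16 rose and 5 fell, led by Vcam1 (3.98 ± 0.13), Mmp13 (2.34) and Icam1 (2.09). Plau (urokinase), named after its value was seen, had the largest fall of that list, from 11.05, 11.12 and 11.11 to 9.47, 9.66, 9.61 and 9.76.

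Immediate early factors, which in macrophages rise within the first hour of a stimulus, were divided at this time, with 10 of 29 risen and 7 fallen. Ier3 rose by 1.73 ± 0.12 and Klf7 by 1.59 ± 0.10. Bhlhe40 fell by 1.5 ± 0.13 and Myc by 1.46 ± 0.10, and Myc read 8.56, 8.54 and 8.37 in vehicle and 7.09, 6.82, 7.06 and 7.16 with LPS. Fos, chosen after its value was seen, read 8.02, 8.35 and 8.29 in vehicle and 6.80, 6.86, 6.83 and 6.83 with LPS, a fall of 1.38 ± 0.10. Klf2 (-0.04) and Klf4 (-0.11) overlapped between the groups and were not called.

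Feedback genes of cytokine signalling rose more often than they fell, while genes of the MAP kinases were divided, where 9.22% of all genes rose and 13.2% fell. Of 28 MAP kinase genes and phosphatases 9 rose and 6 fell, with a median of 0.10, or -0.02 without LPS array 2. Dusp16, a phosphatase of JNK, rose by 2.24 ± 0.12, whereas Dusp1, a phosphatase of p38 that LPS induces early, read 8.78, 8.98 and 9.05 in vehicle and 8.51, 8.34, 8.69 and 8.56 with LPS (-0.41 ± 0.10, adjusted p = 0.00309 in limma). Of 22 genes of cytokine and RNA decay feedback 12 rose and 5 fell, or 3 fell with arrays centred, with quantile normalization, or without the first or the second vehicle array. Cish (3.00 ± 0.16) and Socs3 (2.58 ± 0.16), both inhibitors of JAK and STAT signalling, and the kinase gene Pim1 (2.33 ± 0.13) led the rises, and the second probe set of Socs3 rose by 2.94. Zfp36 (tristetraprolin), which destabilises Tnf RNA, rose by 0.30 ± 0.09, and its relative Zfp36l1 fell by 1.69 ± 0.18. Zfp36l1 read 6.61, 6.64 and 6.98 in vehicle and 4.67, 4.61, 5.53 and 5.42 with LPS, so the LPS arrays lay in 2 pairs, each below every vehicle array.

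Surface receptors moved in both directions, where 9.22% of all genes rose and 13.2% fell. Of 40 chemokine, purine and other G protein-coupled receptors 12 rose and 14 fell. Ccrl2, a chemokine-binding receptor that does not signal, rose by 3.52 ± 0.12, and Hcar2, the niacin receptor, by 2.47 ± 0.13. On the falling side, beside Cnr2, Cxcr4 and Lpar6, stood Cx3cr1, the fractalkine receptor, from 8.33, 8.37 and 8.38 to 6.87, 6.90, 6.92 and 6.56 (-1.55 ± 0.13). Ccr2, the monocyte chemokine receptor, was 0.30 lower with LPS (95% interval -0.54 to -0.06) and was not called (adjusted p = 0.0695 in limma).

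Of 29 C-type lectin, scavenger and TREM receptors 7 rose and 9 fell. Clec4e (Mincle), a receptor for mycobacterial glycolipid, rose by 2.65 ± 0.12, Olr1 by 1.90 ± 0.23 and the scavenger receptor Marco by 1.81 ± 0.13, and Cd300lb fell most. Of 19 Fc receptor and complement genes 4 rose and 1 fell, a share of 26.3% called that is near the 22.4% of all genes. The rises were led by complement factor B (Cfb, 3.40 ± 0.13) and Fcgr2b, the inhibitory Fc receptor (2.09 ± 0.10).

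Of 40 transcription factors and receptors of the macrophage lineage 8 rose and 14 fell, or 10 and 12 with arrays centred on their median. Falls outnumbered rises among all genes too (13.2% fallen, 9.22% risen). The median of the list was -0.09, against -0.02 over all genes. Cebpa, a factor of myeloid differentiation, read 7.88, 7.86 and 7.95 in vehicle and 6.70, 6.64, 6.45 and 6.14 with LPS, a fall of 1.41 ± 0.11 (adjusted p = 2.92e-10 in limma), while its relatives Cebpd and Cebpb rose by 1.23 ± 0.13 and 0.71 ± 0.12. Tfec, a relative of Mitf found in macrophages, rose most, from 6.59, 6.78 and 6.94 to 9.18, 9.12, 9.18 and 9.10 (2.37 ± 0.11). Spic, a factor of macrophages that recycle iron, rose by 1.64 ± 0.17 from 4.61, 4.94 and 5.27 to 6.70, 6.57, 6.79 and 6.26, and LPS against stearic acid measured -0.31. Id3 fell by 1.30 ± 0.14, Smad7 by 1.14, Mef2c by 0.89 and Runx1 by 0.68. Spi1, the master factor of the lineage (0.17 ± 0.08, adjusted p = 0.162 in limma), and Adgre1 (-0.03) were not called, and Csf1r, the receptor for M-CSF, fell by 0.26 ± 0.08. Csf1r lost its call with arrays centred on their median and in the fit of the LPS and vehicle arrays alone. The second probe set of Mitf did not share the rise of the first (-0.06 against 0.41).

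**Figure D4:**
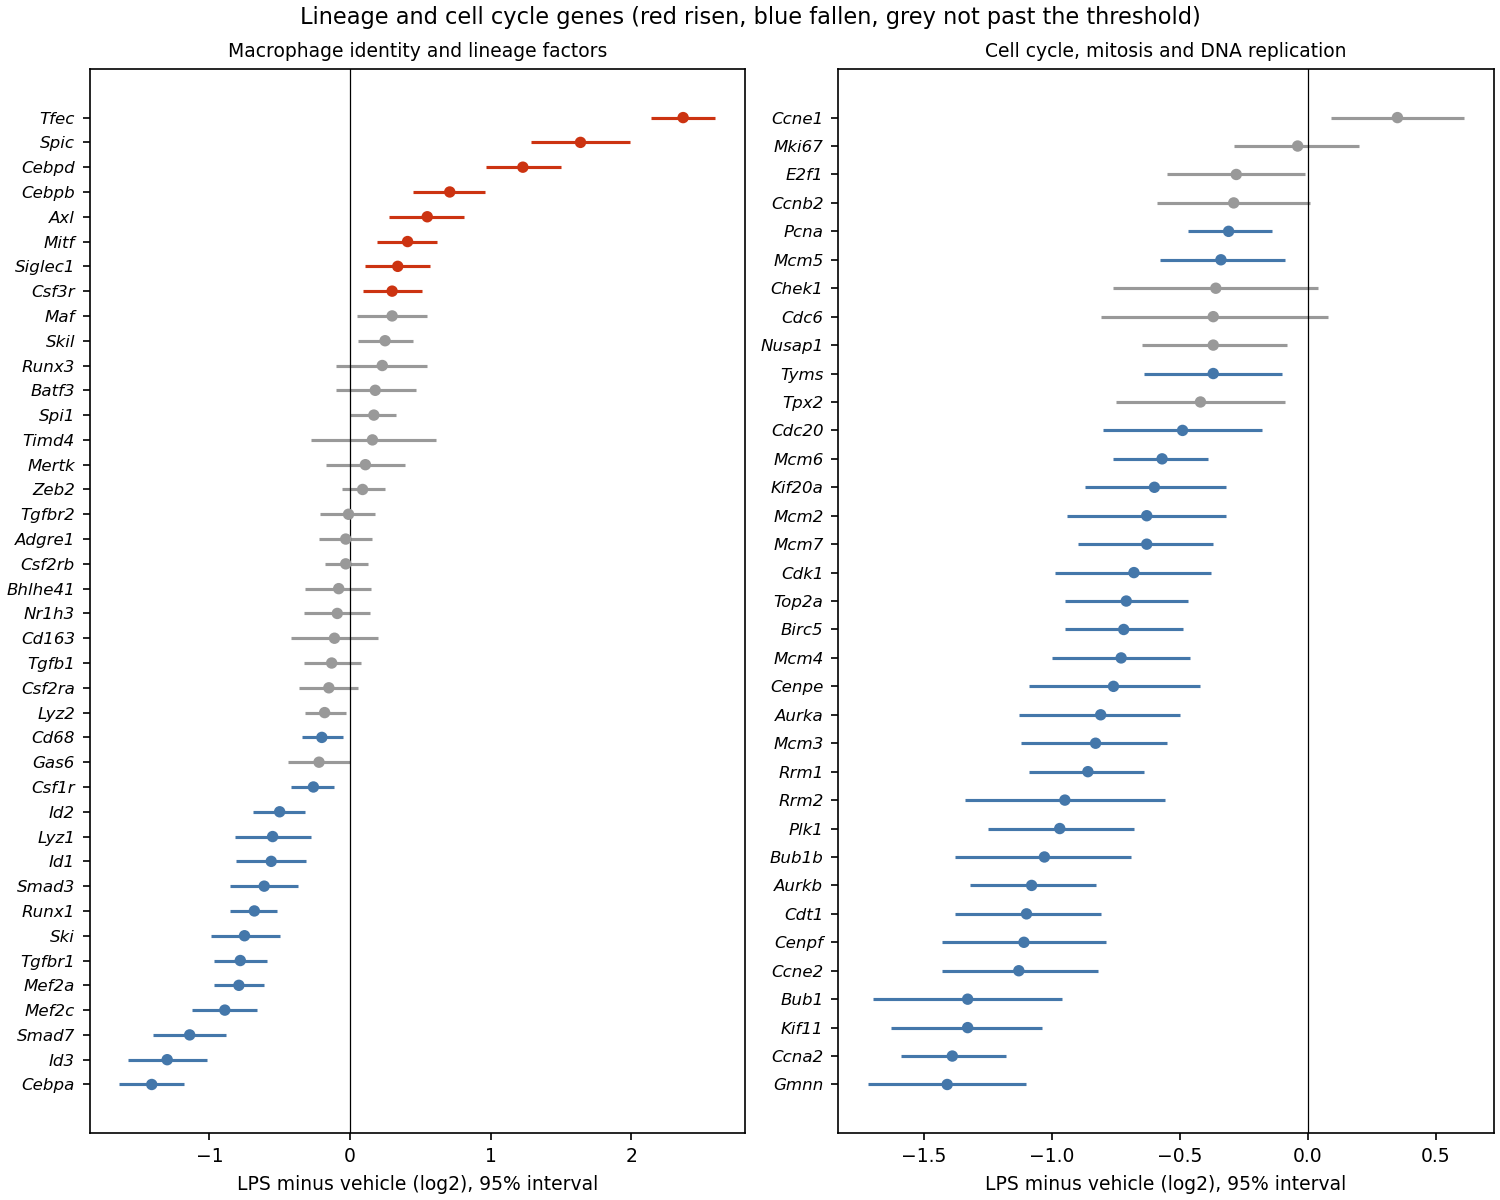
Difference LPS minus vehicle (log2, horizontal axis) with its 95% interval for 40 lineage genes (left) and 35 cell cycle genes (right), risen in red, fallen in blue and not called in grey. The lineage genes spread to both sides, from -1.41 (Cebpa) to 2.37 (Tfec), and 27 of the 35 cell cycle genes lie to the left of 0 as called falls.

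Genes of the cell cycle, mitosis and DNA replication fell together. Of 35 measured members 27 fell and 0 rose in limma, against 13.2% of all genes fallen, and the median was -0.71. Cyclin E1 (Ccne1), named after its value was seen, was the 1 member higher with LPS at an unadjusted p under 0.05 (0.35 ± 0.13, adjusted p = 0.0509 in limma), and it passed as a rise in some of the other fits. The largest falls were those of Gmnn (geminin, -1.41), Ccna2 (cyclin A2, -1.39), Bub1 and Kif11 (both -1.33). Ccna2 read 7.23, 7.17 and 7.33 in vehicle and 5.88, 5.90, 5.79 and 5.86 with LPS, with every LPS array more than 1 below the lowest vehicle array. Mki67, which is often used to mark dividing cells and was named here after its value was seen, overlapped between the groups (-0.04, 95% interval -0.29 to 0.20). The mean level of the list was 5.956 in the vehicle group and 5.252 in the LPS group. Compared with stearic acid 23 of the 35 were lower with LPS and 1 higher, and compared with oleic acid 30 were lower and 1 higher.

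The genes that act before S phase were divided, with 5 of 23 risen and 10 fallen, where 9.22% of all genes rose and 13.2% fell. Ccnd2 rose by 2.48 ± 0.13 from 5.19, 4.96 and 4.99 to 7.40, 7.29, 7.88 and 7.53, and Ccnd1 fell by 1.27 ± 0.13 from 9.47, 9.28 and 9.34 to 8.06, 8.01, 7.88 and 8.43. These 2 D cyclins thus moved in opposite directions without overlap in either. The p53 target Trp53inp1 fell by 1.67 ± 0.13 and the kinase inhibitor gene Cdkn2c by 1.41 ± 0.12. Of 31 growth arrest, chromatin and nuclear receptor genes 7 rose and 11 fell, with Sesn1, the histone deacetylase gene Hdac5 (-1.45) and Klhl24 (-1.19) the largest falls and Tet2, which oxidises methylcytosine, the largest rise (1.19 ± 0.12). Of 20 apoptosis regulators 5 rose and 4 fell, with a median of 0.08. Among the 20% of genes with the highest level 22.4% rose and 24.3% fell, so the counts of this list are near those of bright genes. Mlkl, the effector of necroptosis, rose by 2.31 ± 0.10 and Cflar, an inhibitor of caspase-8, by 1.48 ± 0.09 (1.59 and 1.90 with its other probe sets).

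Of 25 sterol and LXR genes 15 fell and 1 rose, with a median of -0.35, and 11 fell when arrays were centred. The rise was that of Ch25h, which makes 25-hydroxycholesterol and is known as an interferon target, from 3.54, 2.95 and 3.35 to 7.30, 7.24, 7.26 and 8.0 (4.17 ± 0.15). Dhcr7, the last enzyme of cholesterol synthesis, fell by 1.36 ± 0.11 from 6.43, 6.54 and 6.37 to 5.31, 4.93, 5.04 and 5.06. Sqle (-0.88) and Msmo1 (-0.78) fell too, whereas Hmgcs1 (-0.19, 95% interval -0.39 to 0.01) and the efflux pump gene Abca1 (-0.11) were not called. Against stearic acid 18 of the 25 were lower with LPS and 1 higher (median -0.61), and against oleic acid 6 were lower and 3 higher (median -0.06).

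Of 33 fatty acid, lipid droplet and PPAR genes 13 fell and 3 rose, with a median of -0.21, and 11 fell when arrays were centred. The rises numbered 1 in the fit of the LPS and vehicle arrays alone and without vehicle array 1, vehicle array 2 or LPS array 2. Pparg, the nuclear receptor of lipid storage, fell by 1.55 ± 0.09 from 7.43, 7.44 and 7.53 to 5.68, 5.99, 5.96 and 6.02. The desaturase gene Fads1 fell by 1.42 ± 0.11 and the elongase gene Elovl6 by 0.92 ± 0.17, next to the fall of Scd2.

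Lysosome and autophagy genes fell by small amounts, 17 of 31, with 2 risen and a median of -0.28. Tfeb, which activates lysosomal genes, fell by 1.11 ± 0.10, and the cholesterol exporter gene Npc1 by 0.79 ± 0.09. Ctsc, the cathepsin that matures serine proteases, rose by 1.40 ± 0.13 and the autophagy receptor gene Sqstm1 by 0.80 ± 0.09. With arrays centred 12 of the 31 fell.

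Genes of the unfolded protein response showed 4 rises and 10 falls among 28, and 5 falls when arrays were centred. The falls numbered 4 in the fit of the LPS and vehicle arrays alone and without the second vehicle array, and 6 without vehicle array 3. Ppp1r15a (GADD34), which reverses the block of translation, rose by 1.37 ± 0.14 and Herpud1 by 0.63 ± 0.12. Ddit3 (CHOP) read 6.45, 6.79 and 6.73 in vehicle and 6.23, 6.34, 6.50 and 6.04 with LPS, a fall of 0.38 ± 0.11 in groups that overlap (adjusted p = 0.0109 in limma). With stearic acid its mean was 8.03, and LPS against stearic acid measured -1.75 (adjusted p = 6.29e-13 in limma). Sqstm1 (-0.39) and Herpud1 (-0.76), which rose with LPS against vehicle, were lower with LPS than with stearic acid, and Ppp1r15a differed from it by -0.08.

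Respiratory chain subunits moved little, with 6 of 30 fallen, 0 risen and a median of -0.15, where 13.2% of all genes fell. The count of falls depended on the fit. It was 11 with a variance trend and robust moderation, 10 with quantile normalization, 2 with arrays centred, 2 without vehicle array 2, and 3 without vehicle array 3 or LPS array 3. Of 15 housekeeping genes 7 fell, with a median of -0.14, or 5 with a median of -0.08 with arrays centred. The largest fall there was that of Polr2a, a subunit of RNA polymerase II, from 7.68, 7.78 and 7.66 to 6.98, 7.19, 7.22 and 6.81.

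Of 29 hypoxia and glycolysis genes 11 rose and 5 fell, or 8 fell with a variance trend, quantile normalization, array weights or without the dimmest genes. Slc2a6, a hexose transporter, rose by 2.23 ± 0.11, Upp1 by 1.67 ± 0.17 from a dim level, Pfkfb3, which stimulates glycolysis, by 1.27 ± 0.09 and Hif1a, the hypoxia factor, by 1.10 ± 0.09. Of 29 oxidative stress, metal and amino acid transport genes 12 rose and 3 fell, or 6 fell with a variance trend. Saa3, an acute phase apolipoprotein, rose by 3.01 ± 0.14 from 7.79, 7.74 and 7.80 to 10.93, 10.64, 10.72 and 10.85. Slc7a11, the cystine transporter, rose by 2.50 ± 0.12, the zinc transporter gene Slc39a14 by 2.21 ± 0.12 and metallothionein 2 (Mt2) by 1.93 ± 0.14.

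**Figure D5:**
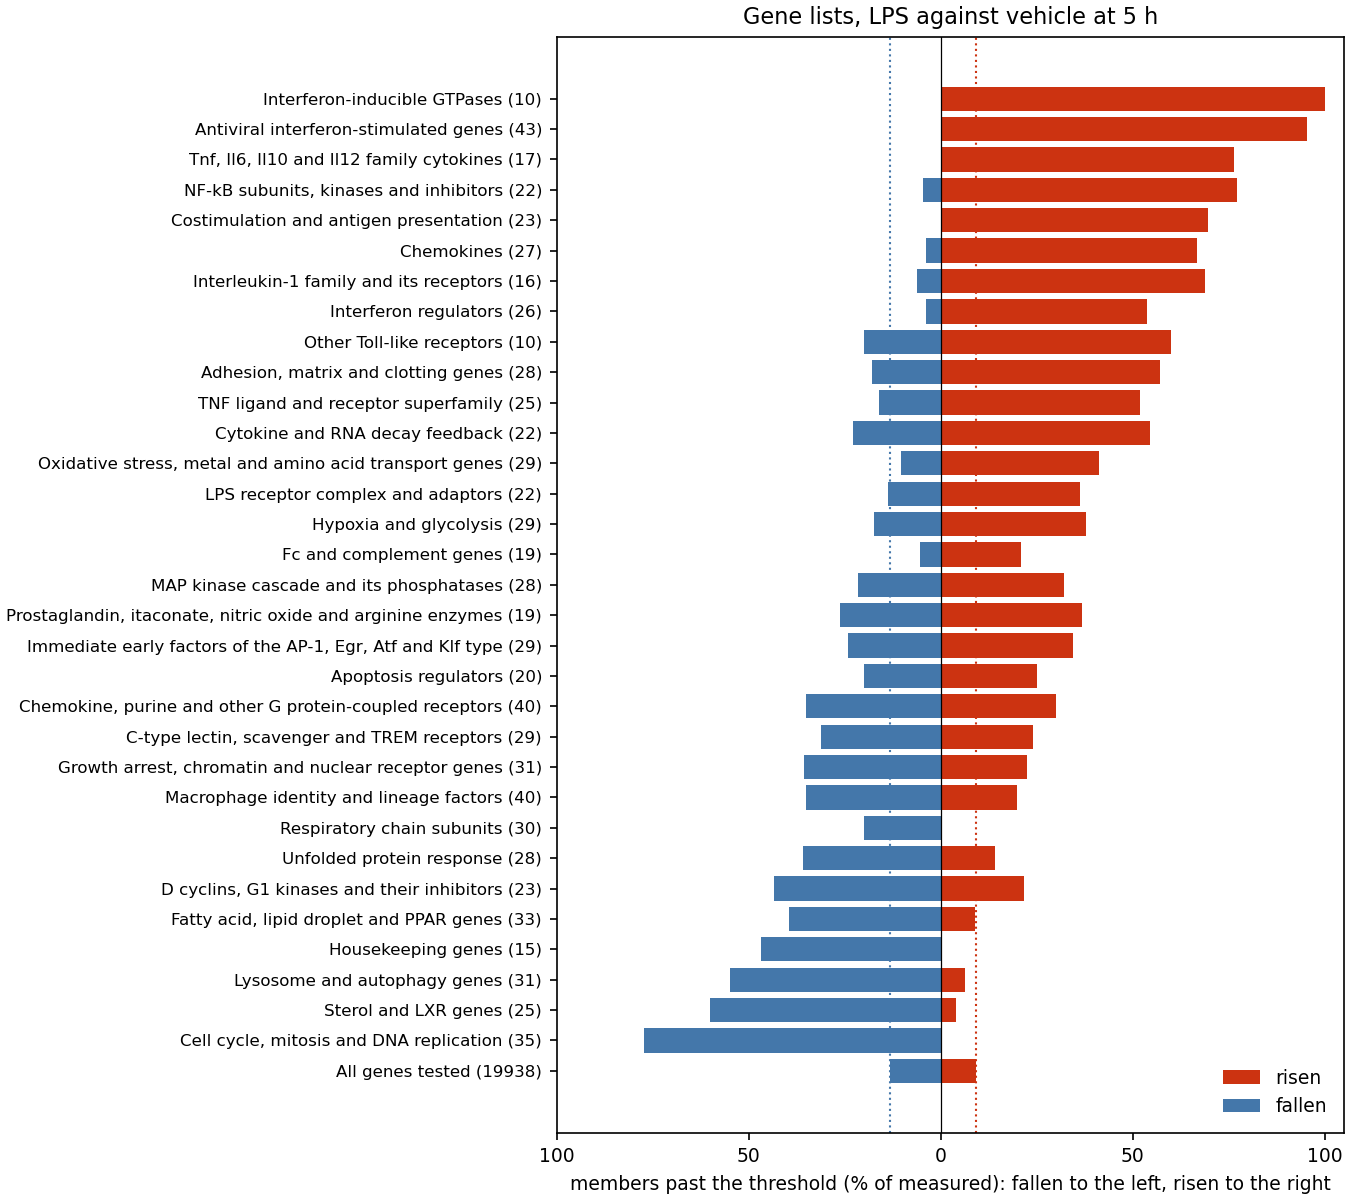
Share of the measured members of 32 gene lists and of all genes tested that fell (blue, to the left) or rose (red, to the right) at an adjusted p under 0.05, in percent, with the number measured in parentheses and dotted lines at the shares of all genes. Interferon-inducible GTPases (10 of 10 measured genes risen, of 19 in the list) stand at the top, and cell cycle genes (27 of 35 fallen) at the bottom above the bar for all genes.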

How the data were processed

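Affymetrix mouse gene arrays were read from the table of processed values. The deposited values are log2 expression, 1 value per probe set and array; the submitters' processing notes name RMA and limma, with no version or role given in the sources used here. RMA levels arrays by matching their distributions, so a shift of most genes would be partly removed. Of 35556 probe sets 21789 had 1 gene symbol, 1621 had several and 12146 were unnamed here; for 19938 genes the probe set with the highest mean was kept. The fit was limma 3.58.1 in R 4.3.3 (lmFit and eBayes) over all 23 arrays in 6 groups, with the contrast of LPS and vehicle at 5 h, two-sided tests and Benjamini-Hochberg adjustment over all genes; a gene was called at an adjusted p under 0.05. Errors (±) are standard errors of that fit. The number of arrays limits the precision. The script was tested on simulated data. Replicate numbers did not pair the arrays (correlations of same-numbered deviations -0.04 to 0.05), so the fit has no block.

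The genes and the 38 gene lists were chosen with earlier results of these data known. Genes named in the text are the 15 largest called changes each way without overlap, up to 4 called genes of each list, all members of 5 lists, and a few reference genes. The 15 each way also had to have their higher group mean above the median gene. Hence a listed rise had to be above it with LPS and a listed fall in vehicle. Others are said to have been chosen after their values were seen, or are the members without a call or against the direction of their list. Alternatives tried were variance trend, centring, quantile normalization, array weights, a filter on dim genes, other treatments of probe sets, fewer groups, the replicate number as a block, and fits that omit 1 array.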

Additional observations from a re-analysis of the deposited data

Results flagged for a closer look

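Among the 269 named genes, the 4 LPS arrays were searched for 1 array far from the other 3 (its gap to the nearest array, as a share of the whole range, above Dixon's 95% critical value). Chance alone does so in about 1 of 20 groups, and 19 genes did. In the fourth LPS array, Ifi213 read 8.48, Irak3 8.58, Axl 6.96 and Cx3cr1 6.56, each below the others, and Ch25h 8.0, Ndufb5 8.79, Ly96 8.10 and Il24 2.95, each above them. In the third, Tlr2 read 9.47, Pfkfb3 7.48, Ticam2 6.44 and Mef2a 8.72, each below the others, and Bhlhe40 6.41, above them. In the second, Icosl read 6.74 and Casp8 8.10, below the others, and Hdac5 5.37, above them. In the first, Il10 read 5.02, below the others, and Tab1 4.45 and Malt1 10.00, above them.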

How the results depend on the processing

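The counts of genes risen and fallen, in all and at 2-fold, stayed within 1.5 times of the values above in every alternative but 1. The exception was the test of all 35556 probe sets, including those with several symbols or none. It gave 915 risen and 464 fallen probe sets at 2-fold, which are other units than genes. Leaving out 1 array at a time gave 1574 to 1791 risen and 2041 to 2545 fallen genes, and 570 to 603 risen and 243 to 272 fallen at 2-fold. With the replicate number as a block, 1829 genes rose and 2678 fell; the numbers are shared labels, since 0 of 3 same-number correlations passed 0.1. Of 217 named genes with a call, 196 kept it in each alternative for single genes in which they were tested, and 21 lost it in at least 1. There were 16 such alternatives, or 15 for genes removed by the filter on dim genes, Ifnb1 among them. Of the named genes without a call 13 gained one, and 0 genes changed sign while called. Among the calls that were lost were those of Irak1, Zfp36, Csf1r, Ddit3 and Ndufb3. The arrays do not show depth; dim probe sets limit the size of a fold such as that of Il6.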

Other observations

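Genes outside the lists were looked through, so each gene here was chosen after its values were seen. Of 272 microRNA genes tested 15 rose and 10 fell (9.19% called, against 22.4% of all genes). These probe sets are annotated to the microRNA gene and not to an arm, so they give no level of a mature microRNA. Mir155, whose product is a known regulator of inflammatory signalling, read 3.88, 3.47 and 3.39 in vehicle and 7.82, 7.72, 7.42 and 7.56 with LPS, a rise of 4.05 ± 0.18 (adjusted p = 6.13e-15 in limma). Mir99a (1.89 ± 0.24) and Mirlet7c-1 (1.24 ± 0.29), neighbours on chromosome 16, rose, as did Mirlet7e (1.53 ± 0.19) and Mir125a (0.78 ± 0.14), neighbours on chromosome 17. Mir142 fell by 0.94, as did the chromosome 8 neighbours Mir24-2 (-0.75), Mir23a (-0.65) and Mir27a (-0.47). The let-7 genes did not move together, since Mirlet7f-1 fell (-0.71, adjusted p = 0.00981 in limma). The mature sequences in RefSeq (GRCm38.p6) are given for 3 of the genes that rose, with the seed in capitals, which let-7c and let-7e share.
mmu-miR-155-5p: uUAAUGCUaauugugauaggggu
mmu-let-7c-5p: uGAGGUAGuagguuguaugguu
mmu-let-7e-5p: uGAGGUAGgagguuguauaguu

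Among the rises, Il15 (3.57 ± 0.16) and its receptor gene Il15ra (3.36 ± 0.13) both rose, as did Ms4a4c (4.13) and Ms4a4d (3.22), Phf11a (3.27) and Phf11d (2.93), and ceruloplasmin (Cp, 4.31 ± 0.15). Among the falls were the cytokinesis genes Kif23 (-1.47) and Anln (-1.40), Fbxo5 (-1.92), which inhibits the anaphase-promoting complex, and the Rassf genes Rassf2 (-1.77), Rassf3 (-1.94) and Rassf8 (-1.36).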
